A study of Mus musculus with 2 samples.

Results

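Natural killer (NK) cells of the lung were followed in 2 droplet single-cell RNA libraries, and they numbered 299 of 15695 cells. A cell was counted as NK when the summed unique molecular identifiers (UMIs, each tagging 1 captured RNA molecule) of Ncr1, Klrb1c, Klre1, Prf1 and Eomes reached 2, when at least 2 of these 5 genes were detected, when no UMI of Cd3d, Cd3e or Cd3g was present, and when Cd79a, Cdh5, Epcam, Col1a2 and Csf3r were all at 0. The members were thus chosen by the measured UMIs of these 13 genes, and what is said of these genes below is description. The control media (CM) library held 203 NK cells among 7988 cells, and the tumor-conditioned media (TCM) library held 96 among 7707.

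The mice were female BALB/c animals of 9 to 10 weeks, with no transgene or deletion named for either group. Medium was injected into a vein over 3 weeks, and the whole lung was then dissociated. TCM was medium in which pieces of 4T1 mouse breast tumor had been kept, and CM was the same medium incubated without tumor, so the comparison asks what tumor secretions did to lungs of animals without a tumor. Each group had 1 library, the number of mice pooled into it was not given, and no difference could be compared with a spread between mice. No test was made and no p-value is given. All intervals are 95% intervals that cover counting error only.

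NK cells are innate lymphocytes that kill infected or transformed cells without prior priming. Activating receptors such as NKp46 (Ncr1) and NKG2D (Klrk1) are balanced against inhibitory receptors that read MHC class I, and the balance decides whether granules with perforin and granzymes are released. They depend on interleukin 15, read through Il2rb and Il2rg, and on the T-box factors Eomes and T-bet (Tbx21). In the mouse they mature from CD27-bearing cells to CD11b-bearing ones, and the lung holds many mature cells that patrol its capillaries. They are known for killing tumor cells that lodge there.

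The RefSeq promoter windows (GRCm38.p6, 250 bases before to 50 after the start of the gene) of 3 genes whose levels are described below are shown: the receptor Ncr1 (chr7:4337465-4337764, plus strand), the pore former Prf1 (chr10:61297586-61297885, plus strand) and the granzyme Gzma (chr13:113100932-113101231, minus strand). Each is read 5′ to 3′ on the gene's strand. Capitals mark the RUNX core TGTGGT and the ETS core GGAAGT on either strand, where the reverse strand reads ACCACA and ACTTCC.
Ncr1: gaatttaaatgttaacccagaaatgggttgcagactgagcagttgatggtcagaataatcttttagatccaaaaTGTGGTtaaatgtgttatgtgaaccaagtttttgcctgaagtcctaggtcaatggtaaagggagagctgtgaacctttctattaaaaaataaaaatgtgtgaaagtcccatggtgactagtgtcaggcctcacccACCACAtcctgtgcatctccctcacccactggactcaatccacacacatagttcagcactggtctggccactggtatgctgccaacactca
Prf1: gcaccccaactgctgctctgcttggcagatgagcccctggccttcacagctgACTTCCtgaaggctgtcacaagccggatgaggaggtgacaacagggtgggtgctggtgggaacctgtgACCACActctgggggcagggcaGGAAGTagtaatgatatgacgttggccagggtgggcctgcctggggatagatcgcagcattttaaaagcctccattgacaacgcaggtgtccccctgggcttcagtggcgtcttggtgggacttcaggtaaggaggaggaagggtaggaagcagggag
Gzma: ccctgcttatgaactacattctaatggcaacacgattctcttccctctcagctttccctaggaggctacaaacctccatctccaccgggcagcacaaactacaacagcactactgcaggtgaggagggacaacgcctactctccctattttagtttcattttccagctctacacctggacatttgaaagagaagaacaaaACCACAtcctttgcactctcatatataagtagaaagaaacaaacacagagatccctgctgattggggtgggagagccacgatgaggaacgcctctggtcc
The windows were read from the first RefSeq start listed for each gene. That of Ncr1 held 2 RUNX matches, that of Prf1 held 1 RUNX and 2 ETS matches, and that of Gzma held 1 RUNX match. Of the windows not printed, that of Gzmb held 2 RUNX matches and that of Eomes held none of either. Among all 32851 promoter windows of this length, 16.8% held the RUNX letters and 23.8% the ETS letters. The T-box letters GGTGTGA (reverse TCACACC), present in 3.98% of all windows, were found in none of these 3. No match overlapped another. A match is a description of the letters and no evidence of binding. The RNA levels of the factors that bind such sites, Runx3, Ets1, Tbx21 and Eomes, are given further on.

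The members were checked against 10 NK genes that the rule did not use (Nkg7, Gzma, Klrd1, Klrk1, Il2rb, Txk, Klri2, Ctsw, Gzmb and Klrb1f). At least 3 of the 10 were detected in 193 CM members (95.1%) and 93 TCM members (96.9%), against 0.656% and 0.671% of the B cells. Some of the 10 are shared with CD8 T cells (defined below). There Nkg7 was seen in 55.6% and 54.6%, Ctsw in 52.8% and 41.2% and Txk in 44.9% and 49.6%, but Klrb1f in 0% of both. The median member had 6 of them in both libraries. T cell genes were sparse: Cd8a was at 0 in every member, and the summed level of 9 T cell genes was 31.3 UMIs per 100000 in CM and 30.5 in TCM, with at least 1 UMI in 42.9% and 36.5% of the members and single cells reaching 390 and 283 per 100000. Trac or Trbc2, the constant regions of the T cell receptor, had a UMI in 12.8% of the CM (8.54 to 18.2%) and 9.38% of the TCM members (4.38 to 17.1%). Genes of type 1 innate lymphoid cells, close relatives of NK cells, and of tissue residence formed a list of 8. Itga1 or Cxcr6 had a UMI in 5 CM and 3 TCM members. Only 1 of these, from TCM, lacked Eomes, but Eomes helped choose the members. Others of the 8 were seen in more members: Il7r in 14 CM and 5 TCM, Tmem176b in 17 and 8 and Rgs1 in 90 and 32. Of the 4 with enough UMIs to be compared, 1 was at least 2-fold higher in TCM, with an interval above 0. Under other processing choices the median log2 ratio of this list, TCM over CM, ran from −0.32 to 0.60. For Tmem176b, 1 cell held 10 of the 17 TCM UMIs. Whether some members are such cells was not tested. Rgs1, a residence gene of that list that NK cells also use, was at 44.3 and 35.4. The type 2 innate lymphoid genes Il1rl1, Arg1 and Il13 were at 0, and Rora, which that lineage needs, was at 11.4 and 4.90. Of the B cell genes, Cd79b was at 0 and Ighm had 29 and 14 UMIs.

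The depth of the members was close in the 2 libraries. The median NK cell had 1970 UMIs and 1094 genes in CM and 1914 UMIs and 1058 genes in TCM, with a median of 1.18% and 1.36% of UMIs from mitochondrial genes. The summed UMIs were 446800 and 183797. No NK barcode occurred in both libraries, and 93 barcodes did so over all cells. Some members stood apart by depth: 15 CM cells and 2 TCM cells held over 4000 UMIs, and they carried 22.3% and 7.05% of all NK UMIs. The deepest CM member (17325 UMIs) held 78 UMIs of Lyz2 and 21 of Chil3 and Ear2, which are macrophage genes, beside 8 UMIs of the 5 rule genes. The deepest TCM member (6955 UMIs) held 199 UMIs of the complement genes C1qa, C1qb and C1qc beside 2 UMIs of the rule genes. Results that rest on these cells are given with and without the members over 4000 UMIs.

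Cells on either side of the threshold differed in the other NK genes. Inside it, 15 CM and 4 TCM members had exactly 2 rule UMIs, and 10 and 4 of these carried at least 3 of the other NK genes. Just outside it, 67 CM and 29 TCM cells that met every other condition had 1 rule UMI, of which 22.4% and 10.3% carried at least 3 other NK genes. A further 12 CM and 8 TCM cells had 2 or more UMIs of 1 rule gene alone, of which 10 and 8 did so. The condition on Cd3 genes removed 24 CM and 31 TCM cells that met the NK thresholds, and at least 3 other NK genes were present in 20 and 26 of them. Cells at the NK thresholds numbered 256 in CM and 149 in TCM before these conditions, and whether those with a Cd3 UMI are T cells, NK cells with some Cd3 RNA or mixed droplets was not tested. The condition on the 5 genes of other lineages removed another 29 and 22 cells, of which 21 and 22 carried at least 3 other NK genes. The conditions thus also removed cells with NK genes, and no alternative left out both conditions at once.

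The first question was how frequent NK cells were in each lung. They made up 2.54% of all CM cells (2.21 to 2.91%) and 1.25% of all TCM cells (1.01 to 1.52%), and the intervals did not overlap. The ratio of the shares, TCM over CM, was 0.490 (0.380 to 0.628). Other lymphocytes were also a smaller part of the TCM library. B cells (at least 2 UMIs of Cd79a, none of Cd3 or of the other lineage genes) made up 7.64% and 3.87%, a ratio of 0.506 (0.439 to 0.583). T cells (at least 2 Cd3 UMIs, none of the other lineage genes) made up 8.86% and 6.49%, a ratio of 0.732 (0.651 to 0.822), and CD8 T cells among them (a UMI of Cd8a or Cd8b1, none of Cd4) made up 2.70% and 1.54%, a ratio of 0.571 (0.453 to 0.717).

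Within the lymphocytes the difference was smaller. NK cells were 13.3% of 1521 NK, T and B cells in CM (11.7 to 15.2%) and 10.7% of 894 in TCM (8.78 to 13.0%), a ratio of 0.805 whose interval of 0.624 to 1.03 spans 1. Of NK and CD8 T cells together, NK cells were 48.4% of 419 in CM and 44.7% of 215 in TCM, a ratio of 0.922 (0.715 to 1.18). Shares of all cells depend on how many cells of other kinds were caught. Without the condition on Cd3 genes the members numbered 222 and 121, and the ratio was 0.565 of all cells (0.449 to 0.708) and 0.921 of lymphocytes (0.732 to 1.15).

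**Figure D1:**
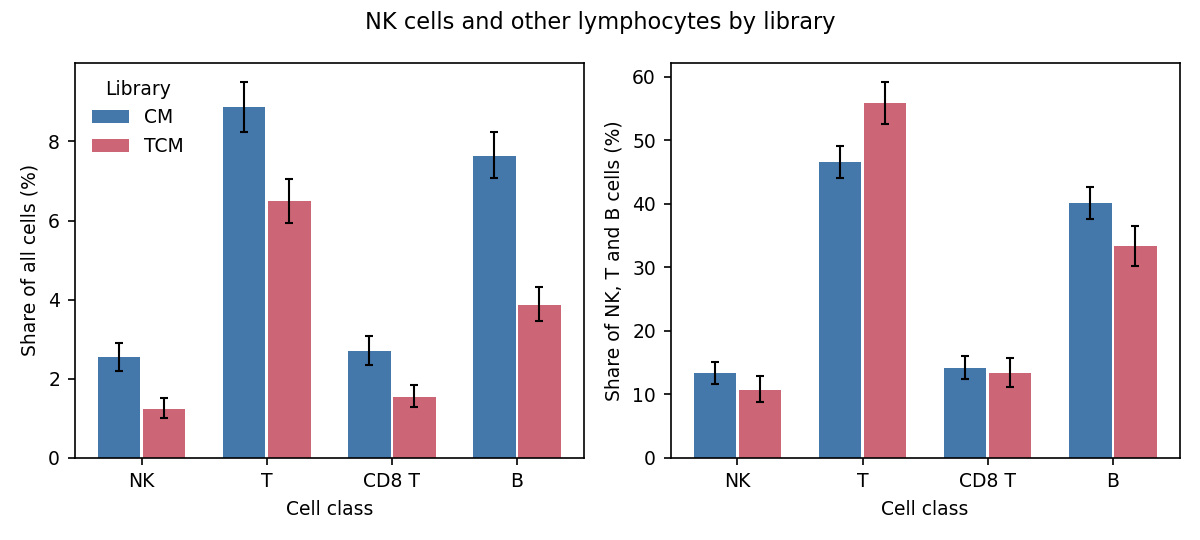
Shares of NK, T, CD8 T and B cells in the CM and TCM libraries, as a percentage of all cells (left) and of NK, T and B cells (right). Bars are the shares in 1 library each and error bars are exact 95% intervals for counting error. NK cells stood at 2.54% and 1.25% of all cells and at 13.3% and 10.7% of lymphocytes.

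Sums over droplets need no cell rule, but those of the 5 rule genes rest on the genes that chose the members and are no separate support. Summed over all barcodes, including those with too few UMIs to be cells, the 5 rule genes were at 0.586 times the CM level in TCM (0.555 to 0.619), and in barcodes under 500 UMIs alone at 0.559 times. Each gene was lower: Klre1, a lectin-like receptor, at 0.478 times, Prf1 at 0.566, Ncr1 at 0.602, Eomes at 0.641 and Klrb1c (NK1.1 of other strains) at 0.695. Of the 10 NK genes outside the rule, Gzma at 0.502 times (0.487 to 0.516) and Gzmb at 0.325 (0.293 to 0.361) were the lowest. The rest lay between 0.526 (Ctsw) and 0.775 (Klrb1f). The Gzmb sum does not speak for the members alone. Of the Gzmb UMIs in cells past the filters, they held 36.1% in CM and 53.5% in TCM, and 1 CM cell that was no member held 264. The direction was not shared by every class of droplet: in barcodes from 500 UMIs that failed a filter, Gzma stood at 4.55 times the CM level (3.61 to 5.80) and Nkg7 at 2.01 times (1.18 to 3.57), and the rule genes at 0.0484 times (0.00964 to 0.150). In such sums, fewer cells of a type and less RNA per cell cannot be told apart. Outside the cell filters the rule was met by 16 of 2970 CM and 11 of 5013 TCM droplets with 200 to under 500 UMIs. It was met by 5 of 288 CM and 0 of 342 TCM droplets with over 10% mitochondrial UMIs, where 3 counts of 342 would be 0.877% and the exact upper bound is 1.07%.

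The next question was which RNAs the NK cells held. Levels are UMIs per 100000 UMIs summed over the NK cells of a library, and ratios are log2 of TCM over CM. Ccl5, a chemokine that draws T cells and monocytes, was at 2218 in CM and 2359 in TCM, and Gzma, a granule protease, at 1525 and 1589. These are the RNAs that marked most members. Their UMIs were seen in nearly every member: Ccl5 in 194 of 203 CM cells (95.6%) and 91 of 96 TCM cells (94.8%), and Gzma in 196 (96.6%) and 94 (97.9%). In B cells, at a median of 1951.5 and 1874.5 UMIs, Gzma was seen in 4.75% and 3.36%. With every cell cut down at random to 1000 UMIs (47 CM and 26 TCM NK cells were shallower and dropped), Gzma remained visible in 96.2% of 156 and 97.1% of 70.

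The 5 rule genes include 3 receptors, a pore former and a transcription factor. Ncr1 (ENSMUSG00000062524, chr7:4337724-4345164, GRCm38) was at 132 (121 to 143) and 146 (129 to 164). Prf1 (ENSMUSG00000037202, chr10:61297833-61304680) was at 142 (131 to 154) and 189 (169 to 210), a log2 ratio of 0.41 (0.21 to 0.60). Eomes (ENSMUSG00000032446, chr9:118478212-118486132) was at 41.0 and 41.4, and Klre1 (ENSMUSG00000050241, chr6:129577905-129585827) at 43.0 and 43.5. Klrb1c (ENSMUSG00000030325, chr6:128778485-128789215) was at 25.1 and 32.1. Prf1 alone of the 5 had an interval of the ratio clear of 0, and since these genes chose the cells no weight is put on it. Without the members over 4000 UMIs its ratio was 0.25.

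Over all genes, 5097 had enough UMIs to be compared (at least 5 expected in each library if the level were equal, which took 18 UMIs in all). Their median log2 ratio was 0.02, and the middle 90% lay between −1.08 and 0.89. At least 2-fold higher in TCM were 177 genes (3.47%), and at least 2-fold lower were 308 (6.04%). The counting interval lay above 0 for 231 genes (4.53%) and below 0 for 191 (3.75%). These percentages are the background for the counts of list genes below, and a gene with more UMIs has a narrower interval.

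The 10 NK genes outside the rule were all higher in TCM, by little. Their median log2 ratio was 0.27, none was past 2-fold in either direction, and 4 had intervals above 0. Nkg7, a granule membrane protein needed for killing (ENSMUSG00000004612, chr7:43437073-43438249), was at 344 and 416, a log2 ratio of 0.27 (0.15 to 0.40). Klrd1 (CD94, the partner of NKG2 receptors) was at 42.1 and 58.8, 0.48 (0.13 to 0.83). Il2rb was at 112 and 151, 0.43 (0.22 to 0.65), and Gzmb (ENSMUSG00000015437, chr14:56258838-56262260) at 92.0 and 112, 0.28 (0.03 to 0.52). Gzma (ENSMUSG00000023132, chr13:113093825-113100981) differed by 0.06, with an interval of −0.00 to 0.12. Without the members over 4000 UMIs the Gzmb ratio was 0.05 and 9 of the 10 genes were higher.

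Medians over single cells were higher in TCM for some of these genes and for the rule genes Prf1 and Ncr1, which helped choose the cells. Txk, seen in 53.7% of CM and 47.9% of TCM members, had a lower median in TCM. So did the rule genes Eomes (seen in 51.2% and 45.8%) and Klre1 (54.7% and 46.9%). The median NK cell held 1575 Gzma UMIs per 100000 in CM and 1685 in TCM, 348 and 424 of Nkg7, 129 and 169 of Prf1, 120 and 148 of Ncr1 and 62.6 and 73.1 of Gzmb. Ccl5 went the other way, with medians of 2011 and 1630, while its summed level was higher in TCM. Within each library cells ranged widely: the quartiles of Gzma were 1002 and 2124 UMIs per 100000 over CM cells and 992 and 2298 over TCM cells.

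**Figure D2:**
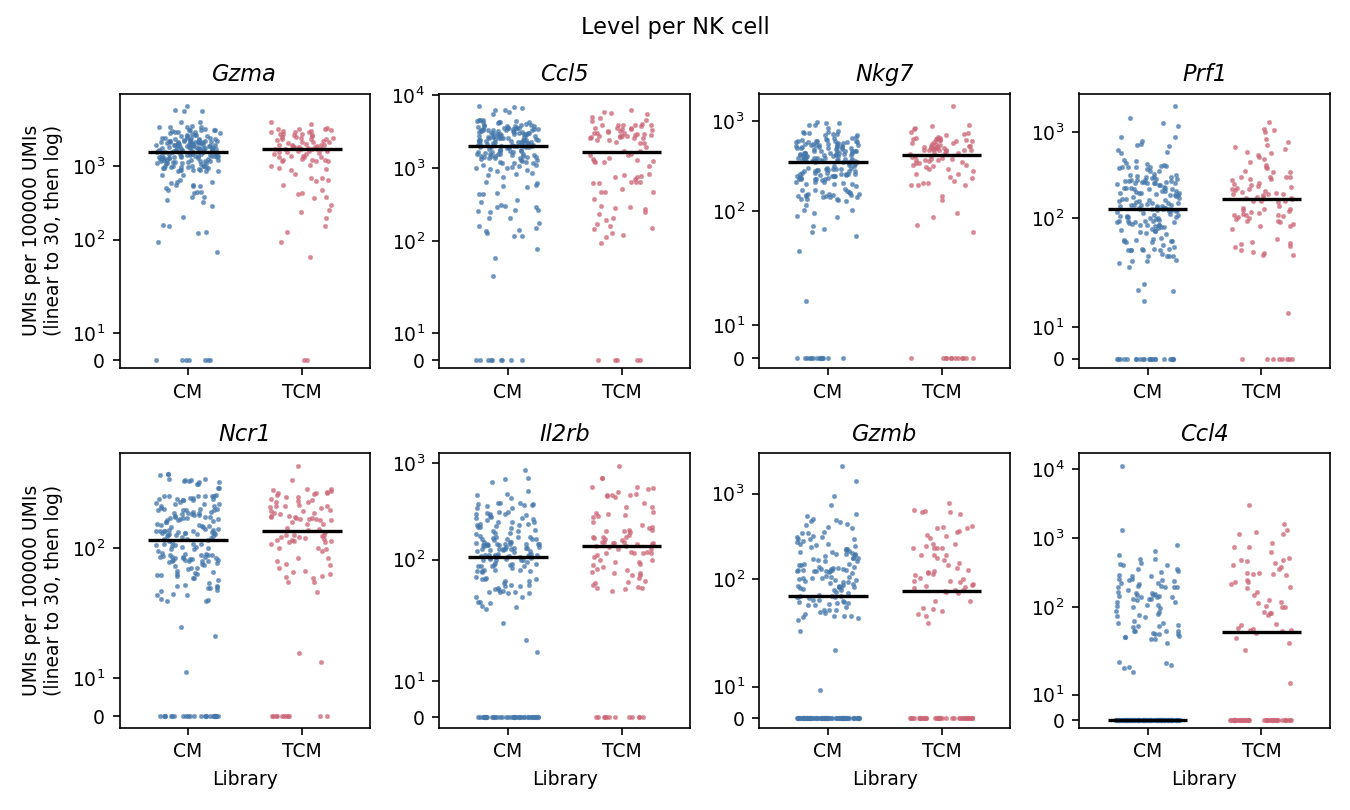
Level per NK cell of 8 genes in the 203 CM and 96 TCM cells, in UMIs per 100000 UMIs on an axis that is linear to 30 and logarithmic above. Points are cells, spread sideways for legibility, and black lines are medians. The 2 libraries overlap for each gene, with medians of 1575 and 1685 for Gzma and 348 and 424 for Nkg7.

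Granule genes differed little, mostly upward. Of 19 listed, 15 could be compared, 13 were higher and 2 lower, and the median was 0.27. The gene past 2-fold was Gzmk, on 13 and 12 UMIs (1.17, −0.10 to 2.42). Intervals lay above 0 for Nkg7, Gzmb, Ctsc, Srgn and Serpinb9. Ctsc, the protease that activates granzymes, was at 19.2 and 29.9 (0.64, 0.12 to 1.14). Under the alternatives its ratio ran from 0.20 to 0.70. Srgn, the proteoglycan that packs granules, was at 79.7 and 100 (0.33, 0.06 to 0.59), and Serpinb9, which shields the cell from its own granzyme B, at 65.6 and 80.5 (0.30, 0.00 to 0.59). Fasl, the death ligand, was at 54.2 and 56.6. Gzma with Gzmb was seen in 64.5% of CM members (57.5 to 71.1%) and 61.5% of TCM members (51.0 to 71.2%), and after the cut to 1000 UMIs Gzmb was seen in 47.4% and 47.1%.

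CD8 T cells, the other killer lymphocytes, gave other values, and the difference between the cell types was not tested. In CD8 T cells Gzma went from 140 to 13.8 and Gzmb from 9.78 to 0.902, log2 ratios of −3.34 (−3.80 to −2.91) and −3.44 (−5.75 to −1.83). Few cells set this: 3 CM CD8 T cells held 475, 239 and 146 of the 972 Gzma UMIs, and 18 of 216 CM and 9 of 119 TCM CD8 T cells had any. The levels of Prf1 in CD8 T cells were 6.33 and 7.52, and of Ccl5 121 and 134. NK cells held 67.1% of all Gzma UMIs in CM cells and 63.0% in TCM cells, and cells with a Cd3 UMI held 17.7% and 14.4%. For Ncr1 the NK share was 74.3% and 58.1%, and that of cells with a Cd3 UMI 10.4% and 21.7%.

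**Figure D3:**
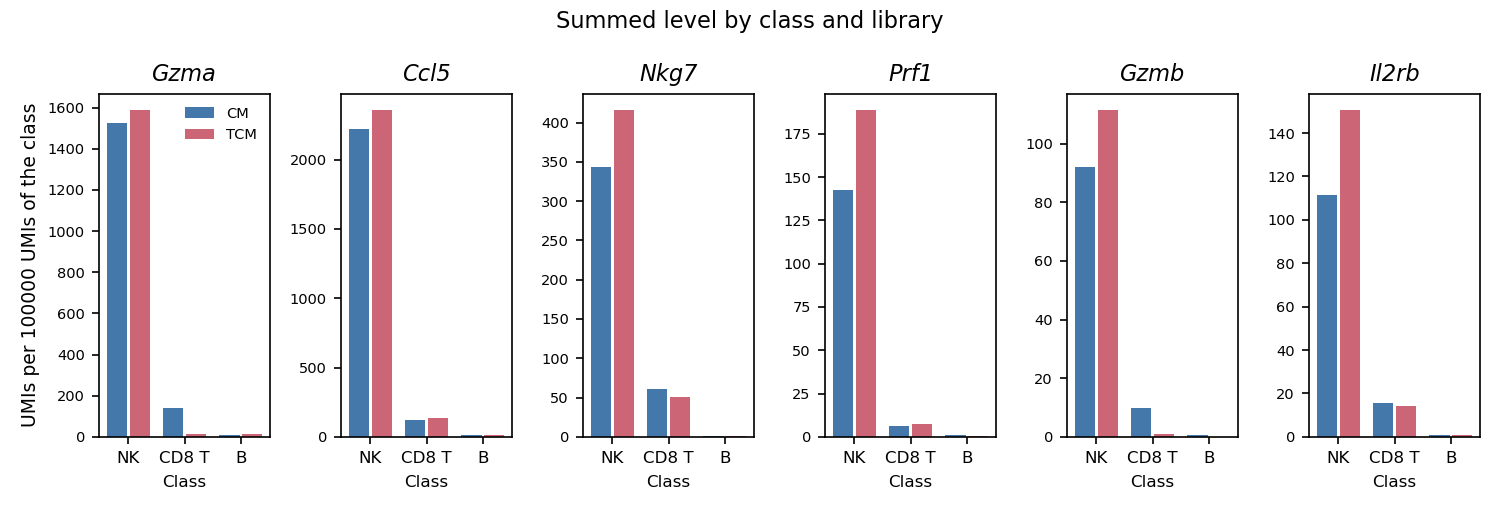
Summed level of 6 genes in NK, CD8 T and B cells of the CM and TCM libraries, in UMIs per 100000 UMIs of the class. Each bar is 1 library and there is no error bar, and each panel has its own axis. Gzma in NK cells stood at 1525 and 1589, and in CD8 T cells at 140 and 13.8.

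Receptors gave small ratios. Of 13 activating receptors and adhesion partners, 12 were in the files under these names and 10 could be compared, 8 higher and 2 lower, with a median of 0.34 and none past 2-fold. Cd244a (2B4, a receptor for CD48) was at 11.6 and 21.2 (0.87, 0.23 to 1.49), and Klrb1a (NKR-P1A) at 23.9 and 37.0 (0.63, 0.17 to 1.08). Klrk1 was at 37.2 and 44.6, with an interval of −0.14 to 0.65. The adhesion genes Itgb2 (86.2 and 88.1) and Cd2 (45.9 and 45.2) were level. The adaptors and kinases that carry their signals were flat, with 9 of 16 higher and a median of 0.05. Tyrobp (DAP12) was at 214 and 194, and Fcer1g at 214 and 240. Lck, the kinase at the start of the cascade, was at 68.5 and 63.1.

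Of 12 inhibitory receptors, 5 could be compared, with a median of 0.29. Tigit, which binds CD155 and restrains killing (ENSMUSG00000071552, chr16:43648867-43664146), was the one past 2-fold, at 7.16 (32 UMIs in 25 cells) and 17.4 (32 UMIs in 24 cells), a log2 ratio of 1.28 (0.53 to 2.03). Klrg1, a receptor of mature cells, was at 28.9 and 35.4, and Klrc1 (NKG2A) at 28.4 and 29.4. Pdcd1 (PD-1) was at 0 in both libraries. Of the 11 Klra genes (Ly49 receptors, which read MHC class I), 2 could be compared: Klra3 was at 48.6 and 68.6 (0.50, 0.17 to 0.82) and Klra7 at 15.9 and 22.9. Klra4 had 6 and 2 UMIs, and Klra6, Klra8, Klra10 and Klra17 were at 0. Klra genes are near copies of each other, BALB/c and the C57BL/6 reference differ in which ones they carry, and values of single members are therefore uncertain.

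Maturity genes did not move as 1 group. Of the 10 genes of mature cells, 9 could be compared and 7 were higher, with a median of 0.29. Cma1, a chymase, was at 35.6 and 49.0 (0.46, 0.07 to 0.84), Zeb2, a factor of late maturation, at 24.8 and 32.1, Itgam (CD11b) at 16.8 and 20.7, S1pr5, the exit receptor, at 26.9 and 23.9, and Klf2, a factor of quiescence and circulation, at 104 and 92.5. Of the 12 genes of immature cells, 10 could be compared, 4 higher and 6 lower, with a median of −0.15. Under the alternatives this median ran from −0.21 to 0.33, so its sign was not stable. Emb, a membrane glycoprotein, was at 8.50 and 16.9 (0.99, 0.25 to 1.71), whereas Xcl1, a chemokine for dendritic cells, was at 15.0 and 8.71 (−0.78, −1.67 to 0.02). Ctla2a, a protease inhibitor, was at 37.4 and 29.4 and Ltb, lymphotoxin beta, at 35.4 and 29.4. A UMI of Itgam without Cd27 was seen in 22.2% of CM and 24.0% of TCM members, Cd27 without Itgam in 8.37% (4.95 to 13.1%) and 14.6% (8.21 to 23.3%), and neither in 67.5% and 57.3%, so most members could not be placed. At 1000 UMIs a cell, Cd27 was seen in 5.13% and 10.0% and Itgam in 13.5% and 17.1%. In B cells Cd27 was seen in 0.328% and 0.671%, and Itgam in 0.820% and 2.01%.

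Transcription factors differed little, with 8 of 13 higher and a median of 0.22 (0.012 to 0.24 under the alternatives). Irf8 was at 167 and 194 (0.22, 0.03 to 0.40), Ikzf3 at 25.3 and 36.5 (0.53, 0.07 to 0.98) and Stat4, which carries the interleukin 12 signal, at 28.6 and 41.4 (0.53, 0.10 to 0.95). Tbx21 was at 18.6 and 22.9, Runx3 at 23.5 and 18.5 and Ets1 at 78.6 and 66.9, and these 3 intervals spanned 0. When levels were averaged over cells instead of summed, the Irf8 ratio was −0.01.

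Receptors for cytokines, with their kinases and feedback genes, were mostly higher. Of 21 listed, 15 could be compared, 12 higher and 3 lower, with a median of 0.43 and none past 2-fold. Intervals lay above 0 for 6 genes. Il18rap (ENSMUSG00000026068, chr1:40515362-40551705), the signalling chain for interleukin 18, was at 29.5 and 48.4 (0.71, 0.31 to 1.11). Ifnar1, for type I interferon, was at 11.4 and 22.3 (0.97, 0.34 to 1.59), and Ifngr1, for interferon gamma, at 151 and 195 (0.37, 0.19 to 0.56). Il2rb is given above, its partner Il2rg was at 67.1 and 91.9 (0.45, 0.17 to 0.73), and Il12rb2 at 24.4 and 34.8 (0.51, 0.04 to 0.97). The kinase Jak1 was at 92.0 and 77.8.

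**Figure D4:**
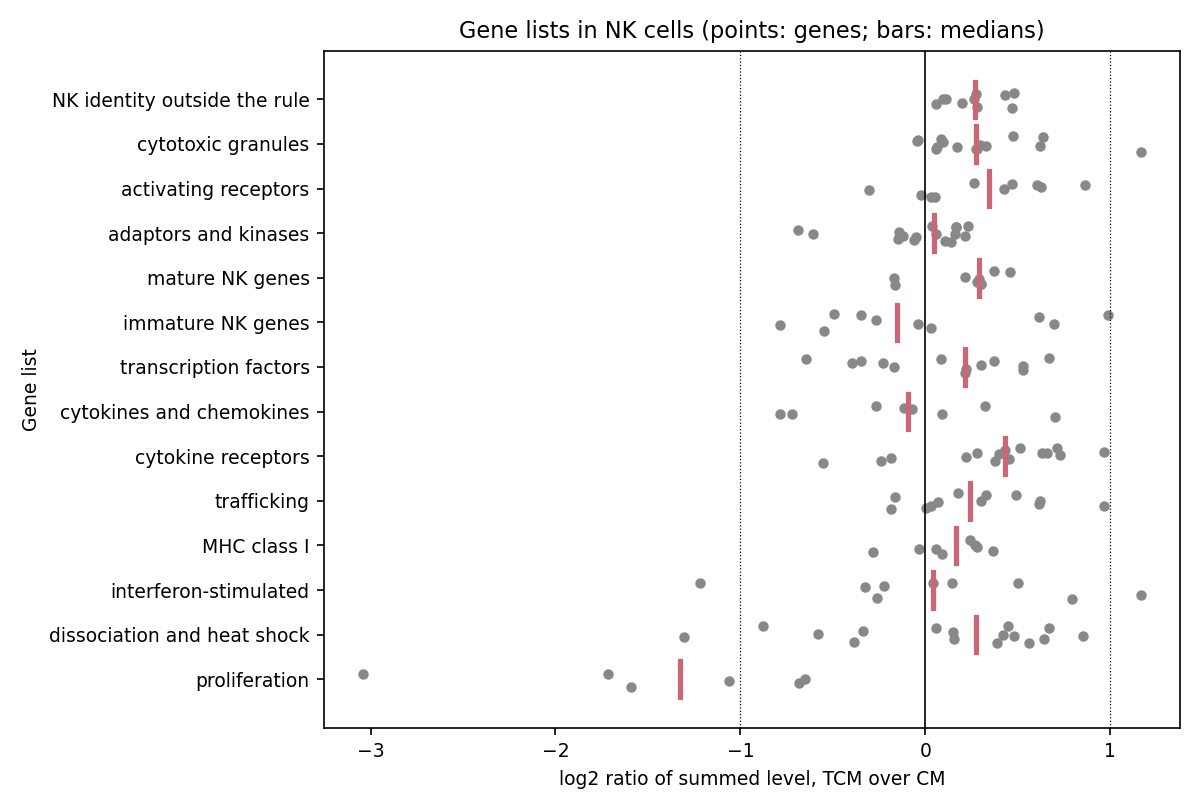
Log2 ratio of TCM over CM of the genes of 14 lists in NK cells. Each point is 1 gene, red bars are list medians, dotted lines mark 2-fold, and genes at 0 in TCM are drawn at their bound. Medians ran from −1.33 for proliferation to 0.43 for cytokine receptors, and no cytokine receptor passed 2-fold.

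Genes of homing and adhesion were higher in 10 of 12, with a median of 0.24 and none past 2-fold. Selplg, the ligand of selectins, was at 122 and 138. Itga4, a chain of the integrin VLA-4, was at 52.4 and 80.5 (0.62, 0.31 to 0.92). Cx3cr1, the receptor for fractalkine, had 10 UMIs in CM and 0 in TCM, too few to compare. Of the secreted factors, 8 could be compared with a median of −0.09. Ccl4 was at 138 and 224 (0.70, 0.52 to 0.88), but 10 cells held 73.2% of its CM and 66.4% of its TCM UMIs, and 1 CM cell held 334 of 615. With the deep members left out its ratio was 0.48. Ifng was at 5.15 and 4.90, seen in 18 CM and 7 TCM cells.

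Stress and immediate-early genes went both ways. Of 16, 11 were higher and 5 lower, 1 of the lower past 2-fold, with 5 intervals above 0 and 4 below. The chaperones Hspa8 (ENSMUSG00000015656, chr9:40800984-40810087), at 220 and 147 (−0.58, −0.78 to −0.39), and Hsp90ab1, at 217 and 166 (−0.39, −0.58 to −0.20), were lower, and so was Hspa1a (−1.30, −2.70 to −0.14). The related Hspa1b was at 4.48 and 5.98, and since Hspa1a and Hspa1b are near copies their single values are uncertain. Dusp1, a phosphatase, was at 53.9 and 29.4 (−0.88, −1.33 to −0.45). The immediate-early factors Fos (0.86, 0.38 to 1.33), Junb (0.45, 0.27 to 0.62), Jun (0.56, 0.18 to 0.93) and Nr4a1 (0.67, 0.31 to 1.02) were higher. Such genes respond to tissue digestion, and its part was not tested.

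MHC class I and interferon genes gave no common shift. Of 8 genes of MHC class I presentation, 6 were higher, with a median of 0.17. H2-D1 was at 295 and 357 (0.28, 0.14 to 0.41) and H2-K1 at 198 and 238 (0.27, 0.10 to 0.44), while their partner B2m was at 108 and 115. Of 9 interferon-induced genes compared, 5 were higher and 4 lower. Of these, 1 was past 2-fold higher (1.17) and 1 past 2-fold lower, with 1 interval above 0 and 0 below. The lower one was Bst2, which tethers virus particles, at 7.61 and 3.26 (−1.22, −2.76 to 0.05). Irf1 was at 21.7 and 22.3, Irf7 at 14.3 and 11.4 and Ly6a at 7.83 and 13.6. The 8 glucocorticoid and clock genes were evenly split, 4 each way, with Txnip at 44.5 and 41.9, Tsc22d3 at 42.5 and 43.5 and Sgk1 at 19.7 and 21.8.

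Cell cycle genes were lower in TCM, and 2 CM cells carried most of the summed UMIs of 4 of them. Of 6 compared, all were lower and 4 were past 2-fold. Mki67 had 24 UMIs in 5 CM cells and 0 in TCM, at least 3.29-fold lower when 0 is set to 3 counts over the group. Tubb5, a tubulin, was at 51.0 and 24.5 (−1.06, −1.55 to −0.59), and Stmn1, which acts on microtubules, at 33.3 and 21.2 (−0.65, −1.20 to −0.14). Pcna, the replication clamp, was at 9.62 and 5.98, with an interval of −1.79 to 0.29. Of the 80 CM UMIs of Mki67, Top2a, Birc5 and Cdk1, 69 were in the 2 deepest cells. Without the members over 4000 UMIs, 3 genes of the list could be compared, their median was 0.02 and none was past 2-fold, with Stmn1 at 0.06 and Tubb5 at −0.56 (−1.12 to −0.03).

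The genes with the widest ratios rested on few UMIs, some of them on 1 cell. The 10 highest were C1qc, C1qa, C1qb, S100a9, S100a8, Apoe, Dnajb2, Ms4a6c, Pltp and Lgmn, from a log2 ratio of 6.93 to 2.34. C1qc had 1 UMI in CM, and its interval was 4.38 to 12.26. C1qa and C1qb had none, so their ratios of 6.31 and 5.50 are lower bounds against 3 counts over the group. The 3 C1q genes, complement parts made by macrophages, came to 204 UMIs in TCM, 199 of them in the deepest TCM member, which also held 47 of the 55 UMIs of Apoe. With those members left out, 3 of the 10 were still compared and at least 2-fold higher (S100a9, S100a8 and Pltp). Dnajb2, a chaperone partner, was seen in 5 CM and 11 TCM cells (2.66, 1.08 to 4.50), and without those members its ratio was 2.48, on too few UMIs to be compared.

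The 10 lowest included Pcolce2, Sod3, Triap1, Mcm5, Serping1, Pknox1, Top2a, Cbx5 and Dnajc24, and ran from −3.63 to −2.97, each with 1 UMI in TCM. With the deep members left out, 6 of the 10 were still compared and at least 2-fold lower. Triap1, a factor of p53-dependent survival, had 25 UMIs in 24 CM cells and 1 in TCM (−3.36, −8.72 to −0.75). Mcm5, a part of the replicative helicase, had 23 UMIs in 16 CM cells.

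The neutrophil genes S100a8 and S100a9 were higher in TCM in NK, B and CD8 T cells, and lower in T cells as a whole. S100a9 (ENSMUSG00000056071, chr3:90692632-90695721) was at 2.24 in CM NK cells and 42.4 in TCM NK cells, a log2 ratio of 4.24 (3.29 to 5.36), and S100a8 at 2.24 and 29.9. S100a8 or S100a9 was seen in 9.36% of CM and 71.9% of TCM members, with at most 2 and 4 UMIs in a cell. In B cells S100a9 was at 6.37 and 84.7, in CD8 T cells at 2.73 and 82.7, in all T cells at 164 and 126 (−0.39, −0.47 to −0.30), and in droplets of at most 50 UMIs at 96.0 and 437. The CM level in all T cells was above those in CM CD8 T cells and in such droplets. Whether the T cell class, also counted in the lymphocyte shares, holds mixed droplets was not tested. Free RNA, taken up by droplets from broken cells, was estimated at 170 UMIs per CM and 229 per TCM NK cell. At that amount it would supply 96.0 S100a9 UMIs to the TCM members, in which 78 were counted, and 4.44 of their 2920 Gzma UMIs. To the CM members it would supply 33.2 S100a9 UMIs, where 10 were counted. The estimate is rough: for genes it was made from, it gave 639 Sftpc and 1876 Scgb1a1 UMIs in CM members, where 1075 and 1389 were counted. Of the 8 neutrophil genes, Cxcr2 was at 0, 4 could be compared and 2 were past 2-fold, and their summed level per cell had a median of 0 in CM (up to 180) and 82.9 in TCM (up to 635). The counts of S100a8 and S100a9 in NK cells were thus at or under the amount estimated for free RNA, and no expression by NK cells is read from them. What part free RNA has in the difference between the libraries was not tested.

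Signs of other lung cells were present in both libraries. The club cell gene Scgb1a1 had a UMI in 201 CM and all 96 TCM members, at 311 and 460, and the surfactant gene Sftpc stood at 241 and 209, with 144 of its CM UMIs in 1 cell. The 4 genes of these epithelial cells had a median summed level of 459 per 100000 in CM cells (up to 10009) and 752 in TCM cells (up to 3897). The 4 endothelial genes were at 13.0 and 25.6 in all, led by Pecam1 and Ramp2, of which Ramp2 was at 3.36 and 9.25 (1.46, 0.37 to 2.57). Of the 3 fibroblast genes Dcn had 14 UMIs in CM and 0 in TCM, and the 4 hemoglobin genes had 5 UMIs in CM and 0 in TCM. The 8 monocyte and macrophage genes had medians of 0 and 12.6, up to 2114 and 2919, and each of the 8 was detected in at least 1 library. Their part in the ratios of other genes was not tested.

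Genes seen in at least 20 NK cells of each library were also looked at, a choice made after the values were seen. Since 20 cells are a larger share of the 96 TCM than of the 203 CM members, genes lower in TCM passed less easily, and no count or balance is read from the 1303 that passed. Among them were Il17ra, the receptor for interleukin 17, at 4.70 (20 cells) and 14.1 (21 cells), and Tnfrsf9, the costimulatory receptor 4-1BB, at 6.71 (21 cells) and 18.5 (20 cells). Their log2 ratios were 1.59 (0.70 to 2.49) and 1.46 (0.71 to 2.22). Dek, a chromatin protein, was at 24.6 (64 cells) and 12.0 (20 cells), a log2 ratio of −1.04 (−1.77 to −0.37).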

How the data were processed

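RNA was measured per cell in 1 CM and 1 TCM library of whole lung, grouped by the treatment label of each sample. The authors perfused and digested the lungs, made 5′ droplet libraries (10x Genomics Chromium), sequenced them on a NovaSeq and mapped reads with Cell Ranger (version 4 in the file headers) to mm10 (GRCm38.p6). The deposited matrices hold raw UMI counts for every barcode, cells and empty droplets alike, with no normalization. Total counts were 31944151 UMIs in CM and 36648719 in TCM.

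Cells were droplets with 500 or more UMIs, 200 or more genes and 10% or less mitochondrial UMIs, the filters of the study. No cell annotation was used here. The members and gene lists were chosen with earlier results of these data known, and no list is independent support. UMIs were summed over the NK cells of a library and divided by their total. A sum of 0 was set to 3 counts for a ratio, and genes with at most 3 UMIs in each library got none. The intervals are exact Poisson for levels, Clopper-Pearson for shares and conditional binomial for ratios. UMIs do not replace replicates, so intervals cover counting error only. The genes named are the 5 rule genes, the 10 highest and 10 lowest ratios with an interval excluding 0, the 3 genes of each list with most UMIs, and further list genes by role. Some genes that this rule names are not reported here. A step on simulated sums checked the ratios and intervals. Doublets were scored with Scrublet in scanpy 1.11.5. Its automatic threshold marked 2 CM and 0 TCM cells and had not worked, so doublets were kept, and removing the top 6% by score was an alternative. Free RNA was profiled in droplets of at most 50 UMIs and its amount estimated from 8 surfactant, club cell and hemoglobin genes. It was subtracted only as an alternative. Alternatives also changed the cell filters, the NK rule, the scaling and the minimum counts. Coordinates are from GENCODE vM21. Computations used Python 3.11.15, numpy 2.4.6, scipy 1.17.1 and pandas 2.3.3.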

Additional observations from a re-analysis of the deposited data

Results flagged for a closer look

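Of the listed genes, 4 moved in opposite directions in NK cells and CD8 T cells with both counting intervals clear of 0. The difference between the cell types was not tested, since each group had 1 library. Gzmb had a log2 ratio of TCM over CM of 0.28 in NK cells and −3.44 in CD8 T cells, where 3 UMIs were counted in TCM. Of the 68 CM UMIs in CD8 T cells, 23, 23 and 7 were in 3 cells, and 9 of 216 cells had any. The NK value was 0.05 without the members over 4000 UMIs. Nkg7 stood at 0.27 and −0.26. Nr4a1, an immediate-early receptor gene, stood at 0.67 and −0.97. Sftpc, a surfactant gene of alveolar cells, stood at −0.20 and 1.47, and the NK value was 0.50 when at least 3 rule UMIs were required.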

How the results depend on the processing

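The share of NK cells among all cells kept its direction under all 12 alternatives, with ratios of TCM over CM from 0.430 (at least 1000 UMIs) to 0.565 (no condition on Cd3 genes). Among lymphocytes the ratio ran from 0.776 to 0.921. No alternative left out both the condition on Cd3 genes and that on the 5 genes of other lineages. Cells at the NK thresholds before both conditions numbered 256 of 7988 in CM and 149 of 7707 in TCM. Alternatives without a Cd3 condition or without members over 4000 UMIs were chosen after seeing the data. The counts of genes past 2-fold depended on the minimum count: 556 higher and 751 lower with 2 expected UMIs, and 42 and 78 with 10. Averaging the level per cell gave 349 higher genes. Leaving out the members over 4000 UMIs gave a proliferation median of 0.023. Of the listed and named genes, 9 values changed sign from a main value whose interval excluded 0. Without the members over 4000 UMIs these were Apoe (−0.22), Stmn1 (0.061) and Chil3 (0.023). With at least 3 rule UMIs they were Lgmn (−1.28), Cd68 (−0.69) and Sftpc (0.50), and with at least 3 other NK genes Sftpc (0.16). With the mean over cells they were Ccl5 (−0.10) and Irf8 (−0.0051). For Apoe, 1 of the cells left out held 47 of the 55 TCM UMIs. For Lgmn, 1 TCM cell held 23 of the 25 TCM UMIs, and for Stmn1, 1 CM cell held 46 of the 149 CM UMIs. The cause of the changes other than that of Apoe was not tested. No paired analysis was possible because the result comes from no test and each group has 1 library, and leaving out a library leaves no comparison. Genes under 18 UMIs in all could not be compared at this depth.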
